A study of Mus musculus with 17 samples.

Results

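The genes described here are 10 glutathione S-transferases of mouse liver, chosen by name as family members: Gsta1, Gsta2, Gsta3 and Gsta4 of the alpha class, Gstm1, Gstm2, Gstm3 and Gstm6 of the mu class, Gstp1 of the pi class and Gstt1 of the theta class. They were 10 of the 16593 genes with a symbol on the array and had 17 of its 25697 probes. All 17 probes passed the filter on low signal, so that each of the 10 genes was tested among the 13128 genes kept. Total RNA of liver was hybridised to Illumina bead arrays, 17 in all. The 4 healthy arrays came from untreated mice, labelled "No" for tk. The 6 CCl4 arrays came from livers with fibrosis induced by CCl4 (carbon tetrachloride) and labelled "Neg" for tk. The 4 FSP1 ablated arrays and the 3 aSMA ablated arrays came from livers with the same CCl4 disease and carried the tk labels "FSP1 +" and "aSMA +". The labels name no strain, sex, age, CCl4 dose or duration, and no promoter or drug for the ablation, and do not say that arrays are of separate mice, so that p-values measure the spread between arrays, which may be technical. FSP1, the product of S100a4, marks subsets of fibroblasts and macrophages, and aSMA, the product of Acta2, marks myofibroblasts.

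Glutathione S-transferases join the tripeptide glutathione to electrophiles such as drug metabolites and the aldehydes left by lipid peroxidation, and the conjugates are then exported and trimmed to mercapturates. Hepatocytes are the main site of the alpha, mu and pi enzymes in mouse liver, and many of the genes respond to electrophiles through the transcription factor Nrf2 at antioxidant response elements. CCl4 injures pericentral hepatocytes after Cyp2e1 converts it to a radical that starts lipid peroxidation.

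In the reference annotation Gsta4, Gsta1 and Gsta2 lay on chromosome 9 in this order, with 4 other protein-coding genes between them, while Gsta3 lay on chromosome 1. Gstm6, Gstm3, Gstm2 and Gstm1 were direct neighbours on chromosome 3, and Gstp1 and Gstt1 lay on chromosomes 19 and 10. The start regions of Gsta1, Gsta2 and Gsta3 are shown because the first and second of these genes had the widest differences after FSP1 ablation and the other none past the test. Each covers 250 bases before to 50 after the annotated start in RefSeq GRCm38.p6, read 5′ to 3′ on the gene's own strand. The Gsta1 window was chr9:78230419-78230718 on the plus strand, the Gsta2 window chr9:78347096-78347395 on the minus strand and the Gsta3 window chr1:21240335-21240634 on the plus strand. Capitals in Gsta1 and Gsta2 mark their longest shared run, 29 bases, and capitals in Gsta3 mark a match to the core antioxidant response element.
Gsta1: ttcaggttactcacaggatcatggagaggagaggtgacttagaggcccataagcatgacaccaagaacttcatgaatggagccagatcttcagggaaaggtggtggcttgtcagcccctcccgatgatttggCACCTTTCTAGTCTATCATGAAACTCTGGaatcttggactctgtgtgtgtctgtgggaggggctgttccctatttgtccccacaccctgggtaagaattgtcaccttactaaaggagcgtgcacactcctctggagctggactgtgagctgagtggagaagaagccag
Gsta2: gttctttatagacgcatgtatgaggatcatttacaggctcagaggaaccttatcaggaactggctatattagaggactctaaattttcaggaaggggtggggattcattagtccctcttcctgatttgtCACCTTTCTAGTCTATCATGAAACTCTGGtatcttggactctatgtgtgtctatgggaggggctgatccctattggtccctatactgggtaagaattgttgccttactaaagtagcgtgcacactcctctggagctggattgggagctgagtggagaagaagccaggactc
Gsta3: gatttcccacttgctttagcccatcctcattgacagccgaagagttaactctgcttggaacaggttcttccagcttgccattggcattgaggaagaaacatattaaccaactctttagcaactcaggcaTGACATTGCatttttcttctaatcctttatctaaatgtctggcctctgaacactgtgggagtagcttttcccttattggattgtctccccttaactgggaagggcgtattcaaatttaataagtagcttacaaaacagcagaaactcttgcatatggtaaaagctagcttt
Aligned end to end, the Gsta1 and Gsta2 windows had 238 of 300 bases identical (79.3%), against 185 of 300 (61.7%) for Gsta1 and Gsta3, whose longest shared run was 9 bases. The core motif TGACNNNGC was searched on both strands; no other motif was searched. It was found in 1 of the 9 members present in the RefSeq table, Gsta3, on the plus strand 121 bases before the start, and in 3781 of the table's 27025 genes (14.0%), or 4071 of 32851 windows (12.4%) against 1 of 12 windows of the members. Gsta4 had no window in the table. No match says only that these letters are not in these windows.

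The deposited signals of the healthy arrays had an upper quartile of 63.7 to 65.7 intensity units, against 165 to 179 on the other 13 arrays, and between 13835 and 16516 probes per array were above background. All levels below are log2 intensities after background correction and quantile normalization, which puts the arrays on a common scale, and every adjusted p is from 1 limma fit with Benjamini-Hochberg adjustment over 13128 genes. A probe's level shows how a gene differs between arrays and not how genes rank against each other. The summed signal of 10 hepatocyte markers lay between 16.79 and 17.01 on every array, a sum carried by its brightest probes. Of the 10, 3 were lower in CCl4 than in healthy liver, among them Serpina1a (-0.75, limma adjusted p = 0.00641), and Fetub was higher in FSP1 ablated than in CCl4 liver (1.47, limma adjusted p = 8.26e-05). Alb itself read only 6.08 to 6.60 on the healthy, FSP1 ablated and first 3 CCl4 arrays and 8.62 to 9.31 on the other 6. Acta2 was 9.15 to 11.34 in CCl4, 6.95 to 7.77 in FSP1 ablated and 7.67, 9.31 and 7.38 in aSMA ablated liver. S100a4 stayed near background in all 17 arrays (5.86 to 6.21), so that it does not check the FSP1 label. The arrays were also mixed in sex signal. Xist was 7.27 to 9.41 on the FSP1 ablated, aSMA ablated and first 3 CCl4 arrays and at most 5.92 on the others, while the Y-linked Eif2s3y was 9.25 to 9.53 on the 4 healthy arrays and CCl4 arrays 5 and 6 and 5.68 to 5.76 on the other 11.

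The comparison of FSP1 ablated with CCl4 liver shows which transferases differed between these groups, and does not isolate the loss of FSP1-positive cells. The tk labels differed, and part of the CCl4 arrays differed from the FSP1 ablated arrays in Xist, Eif2s3y and Alb. Transcripts of 3 alpha class enzymes fell: Gsta1 by 9.1-fold, Gsta2 by 4.11-fold and Gsta4 by 2.56-fold. These were 3 of 10 members, all lower, where 12.6% of all genes tested passed in either direction, 7.21% as lower and 5.37% as higher. The fourth alpha gene, Gsta3, and the 6 mu, pi and theta genes did not pass. In bulk liver RNA, fewer cells of a type and less RNA per cell cannot be told apart.

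Gsta1 encodes an alpha enzyme that is strongly inducible in rodent liver and acts on lipid hydroperoxides. Its level was 7.37, 6.82, 6.86 and 6.72 on the 4 FSP1 ablated arrays, 9.13, 10.06 and 9.12 on the 3 aSMA ablated arrays and 9.79 to 10.46, with a median of 10.14, on the 6 CCl4 arrays. On the healthy arrays it was 7.71, 8.09, 9.49 and 9.47. After quantile normalization every FSP1 ablated array lay below every array of the other 3 groups. The healthy arrays split into a lower and a higher pair. In deposited units the Gsta1 probe read 68.1 to 137.5 in FSP1 ablated liver against 952.2 to 1542.5 in CCl4 liver. The healthy arrays, on their lower deposited scale, read 73.1, 104.9, 334.8 and 333.3 and overlapped with the FSP1 ablated arrays. The log2 difference was -3.19 (SE 0.32, 95% interval -3.87 to -2.50, limma adjusted p = 1.83e-05, n = 4 and 6). Its size moved with the background step, to -3.82 without background correction and -3.79 on the deposited scale. CCl4 arrays 1 to 3 had Xist signal and a low Alb reading like the FSP1 ablated arrays. The Gsta1 difference was -3.29 from those 3 arrays and -3.08 from arrays 4 to 6.

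Gsta2 is the close paralog of Gsta1, and since probe sequences were not used here, cross-hybridisation between them was not tested. Its level was 8.20, 7.59, 8.88 and 6.70 in FSP1 ablated liver, 9.73, 10.01 and 9.64 in aSMA ablated liver and 9.32 to 10.27 (median 9.92) in CCl4 liver. The healthy arrays read 8.85, 9.28, 9.57 and 9.57. The FSP1 ablated arrays did not overlap with CCl4 or aSMA ablated arrays, but the third of them, at 8.88, lay just above the lowest healthy array. Gsta2 was lower in FSP1 ablated than in CCl4 liver by a log2 difference of -2.04 (SE 0.32, limma adjusted p = 0.000684), and by -2.01 and -2.07 against CCl4 arrays 1 to 3 and 4 to 6.

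Gsta4 conjugates hydroxynonenal, an aldehyde formed by lipid peroxidation. Its level was 9.22, 8.61, 10.28 and 8.62 in FSP1 ablated liver, 11.07, 10.84 and 10.87 in aSMA ablated liver and 10.05 to 10.96 (median 10.58) in CCl4 liver. The healthy arrays lay close together at 10.73, 10.45, 10.66 and 10.48. The third FSP1 ablated array overlapped with CCl4 arrays 2 and 3, which read 10.12 and 10.05, and the other 3 lay below all CCl4 arrays. The log2 difference was -1.35 (SE 0.28, limma adjusted p = 0.00433). It depended on the CCl4 arrays used, at -1.01 (adjusted p = 0.0335) against arrays 1 to 3 and -1.70 (adjusted p = 0.00132) against arrays 4 to 6.

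Gsta3, a constitutive alpha enzyme that detoxifies aflatoxin epoxide in mice, read 13.95, 13.92, 13.87 and 13.29 in FSP1 ablated liver, 14.01, 13.91 and 14.09 in aSMA ablated liver and 13.63 to 13.89 (median 13.80) in CCl4 liver. Its healthy arrays were 13.97, 13.93, 13.94 and 13.98. Apart from the fourth FSP1 ablated array, all arrays lay within a narrow band. The difference between FSP1 ablated and CCl4 liver was -0.02 (95% interval -0.24 to 0.21, limma adjusted p = 0.946). A second, dimmer Gsta3 probe, between 8.33 and 10.26, gave 0.32 (SE 0.32).

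**Figure D1:**
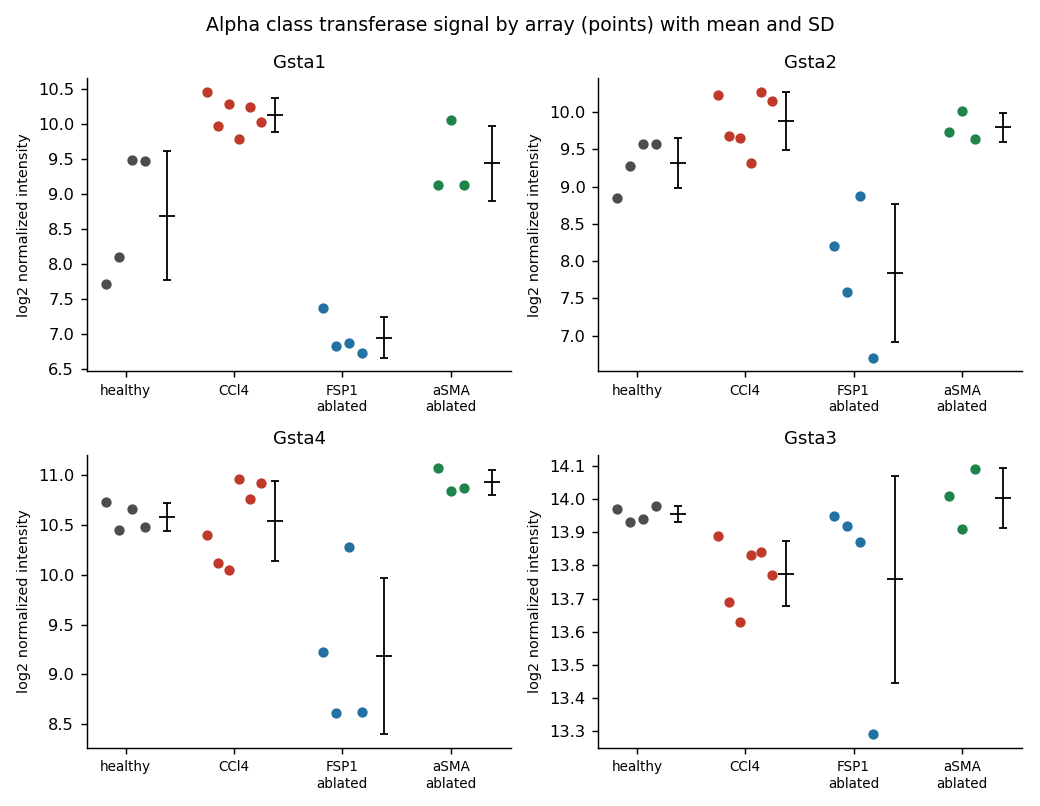
Log2 normalized intensity (y axis) of Gsta1, Gsta2, Gsta4 and Gsta3 on each array (points, in replicate order) of the 4 groups (x axis), with the mean and SD beside each group. The 4 FSP1 ablated arrays lie lowest for Gsta1 (6.72 to 7.37), while 3 of 4 do for Gsta4 and Gsta3 differs little between groups.

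The mu class genes did not pass in FSP1 ablated against CCl4 liver. Gstm1, a major mu enzyme of mouse liver, read 12.77, 13.04, 12.86 and 11.96 in FSP1 ablated, 12.99, 13.15 and 12.96 in aSMA ablated and 11.90 to 13.31 (median 12.88) in CCl4 liver. On the healthy arrays it was 12.75, 13.09, 12.84 and 13.05. The groups overlapped, and the difference of FSP1 ablated from CCl4 liver was -0.04 (95% interval -0.59 to 0.50). A second Gstm1 probe was near background throughout (5.78 to 6.66) and did not follow the first (r = -0.04 over 17 arrays, a description). Gstm2, another mu enzyme, had 3 probes that moved together (r between 0.84 and 0.94 over 17 arrays). Its brightest probe read 12.67, 13.10, 12.15 and 11.90 in FSP1 ablated, 13.02, 13.29 and 13.05 in aSMA ablated and 12.07 to 13.30 (median 12.82) in CCl4 liver. The healthy arrays were 12.18, 12.50, 12.71 and 12.65, and the difference of FSP1 ablated from CCl4 liver was -0.26 (95% interval -0.78 to 0.27).

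Gstm3 was at or near background, between 5.71 and 6.03, and was not above background on 12 of 17 arrays, among them all 4 FSP1 ablated arrays. No fold is given for it. Gstm6 had the clearest mu class pattern. Its level was 10.57, 10.84, 11.09 and 11.17 in healthy, 9.57, 9.79, 9.88 and 8.56 in FSP1 ablated, 9.76, 10.30 and 10.30 in aSMA ablated and 9.16 to 10.34 (median 9.57) in CCl4 liver. All 13 arrays of CCl4-treated liver lay below all 4 healthy arrays, and the difference of FSP1 ablated from CCl4 liver was -0.22 (95% interval -0.82 to 0.39). The mu genes are similar in sequence, and cross-hybridisation among their probes was not tested.

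Gstt1, a theta enzyme that acts on small halogenated compounds, read 11.45, 11.15, 11.51 and 10.52 in FSP1 ablated, 11.08, 11.44 and 11.43 in aSMA ablated and 10.96 to 11.39 (median 11.16) in CCl4 liver. Its healthy arrays were 11.77, 11.66, 11.45 and 11.48. The FSP1 ablated arrays spanned the CCl4 range, with a difference of -0.02 (95% interval -0.37 to 0.32). The fourth FSP1 ablated array was the lowest of its group for Gsta1, Gsta2, Gsta3, Gstm1, Gstm2, Gstm6 and Gstt1. Without it Gsta1, Gsta2 and Gsta4 still passed.

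Gstp1, the pi enzyme, is known to be more abundant in male than in female mouse liver. Its brightest probe read 14.23, 14.75, 14.75 and 14.63 in healthy, 13.32, 13.85, 12.75 and 12.79 in FSP1 ablated and 13.73, 14.11 and 14.11 in aSMA ablated liver. The 6 CCl4 arrays read 13.69, 14.09, 13.88, 13.13, 14.72 and 14.72, so that arrays 5 and 6 stood with the healthy arrays. The difference of FSP1 ablated from CCl4 liver was -0.86 (SE 0.29, limma adjusted p = 0.063) and did not pass, although the second brightest probe gave -0.95 (adjusted p = 0.0375 over probes). The third and dimmest probe gave -1.01 (adjusted p = 0.214 over probes). Leaving out 1 array at a time moved the difference between -1.08 and -0.72, and it passed without CCl4 array 4 (-1.05, adjusted p = 0.0134) or FSP1 ablated array 2 (-1.08, adjusted p = 0.0338). Against CCl4 arrays 1 to 3, which like the FSP1 ablated arrays had Xist and no Y-linked signal, it was -0.71 (adjusted p = 0.219), and against arrays 5 and 6, with Y-linked signal, it was -1.54 (adjusted p = 0.00383). The Gstp1 level moved with the Y-linked signal. On the 6 arrays with high Eif2s3y, from 2 groups, the brightest Gstp1 probe read 14.23 to 14.75, against 12.75 to 14.11 on the other 11 arrays. The other probes split the same way, one at 13.95 to 14.56 against 12.21 to 13.77 and the other at 8.95 to 10.04 against 6.98 to 8.08. Eif2s3y was low on all FSP1 ablated and aSMA ablated arrays, so that group and sex signal cannot be told apart in a comparison with healthy liver. The probes may also read the near-identical paralog Gstp2, which was not tested.

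**Figure D2:**
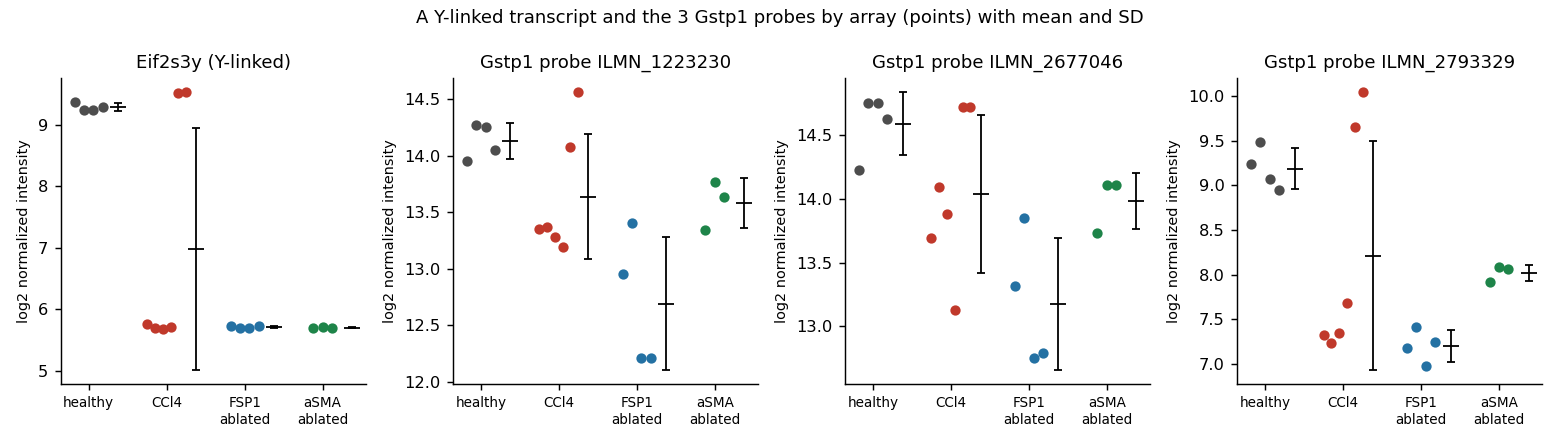
Log2 normalized intensity (y axis) of the Y-linked Eif2s3y and the 3 Gstp1 probes on each array (points, in replicate order) by group (x axis), with mean and SD. CCl4 arrays 5 and 6 lie with the 4 healthy arrays in all 4 panels, and the 6 arrays with high Eif2s3y do not overlap with the other 11 for any Gstp1 probe.

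**Figure D3:**
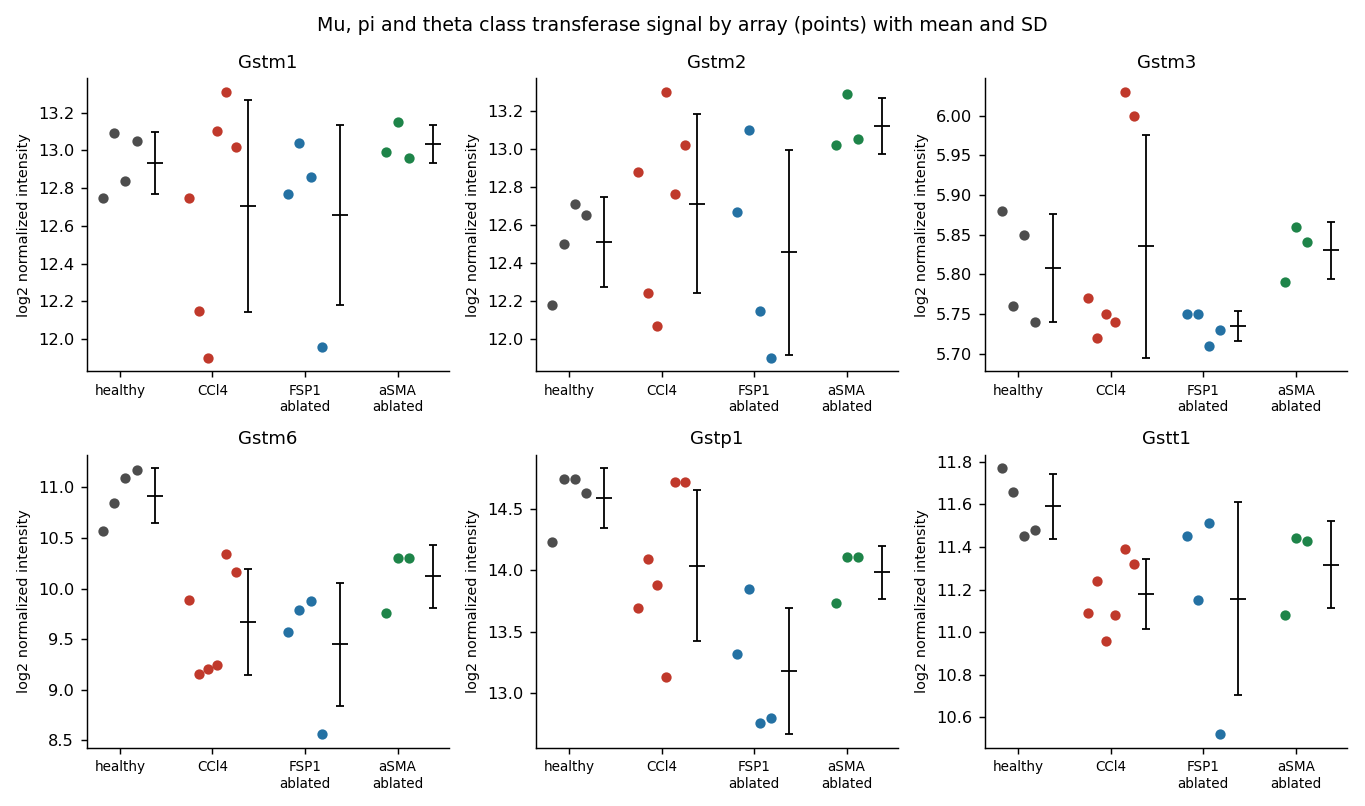
Log2 normalized intensity (y axis) of Gstm1, Gstm2, Gstm3, Gstm6, Gstp1 and Gstt1 on each array (points, in replicate order) of the 4 groups (x axis), with the mean and SD beside each group. Gstm6 separates the 4 healthy arrays (10.57 to 11.17) from the other 13, and Gstm3 stays between 5.71 and 6.03.

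Across the 10 genes, all 10 differences of FSP1 ablated from CCl4 liver were below 0, with a median of -0.24 against 0.01 over all genes. That shared direction did not survive another scaling, since Gsta3, Gstm1 and Gstt1 were above 0 on the deposited scale and after median centring, and it rested on the fourth FSP1 ablated array, without which 6 were below 0. The arrays of the groups did not overlap for 2 members, Gsta1 and Gsta2, where 10.4% of all genes had no overlap.

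The aSMA ablated arrays carried the same injury, and their comparison with CCl4 liver likewise does not isolate the loss of aSMA-expressing cells. No member passed against CCl4 liver in the limma fit, where 0.00762% of all genes did (1 of 13128). By the brightest probe of each gene none had an unadjusted p under 0.05. The arrays did not overlap for 1 member, Gsta3, where 4.75% of all genes had no overlap. The difference was 0.23 for its brightest probe. Its second, dimmer probe gave 0.89 (95% interval 0.16 to 1.63), also without overlap. In the limma fit over probes that had an unadjusted p of 0.0207 and an adjusted p of 0.366. Gsta1 was 9.44 ± 0.54 (SD, n = 3) in aSMA ablated and 10.13 ± 0.24 (SD, n = 6) in CCl4 liver, a difference of -0.69 (95% interval -1.44 to 0.06, limma adjusted p = 0.503). On aSMA ablated arrays 1 and 3 Gsta1 read 9.13 and 9.12, below all CCl4 arrays. Array 2 read 10.06, and its Acta2 level of 9.31 lay within the CCl4 range. Whether these levels are related was not tested, and 1 array cannot show it. For Gsta2 the difference was -0.09 (95% interval -0.85 to 0.66) and for Gsta4 it was 0.39 (95% interval -0.26 to 1.03). These intervals leave room for changes of either sign in Gsta2 and Gsta4 and for a lower Gsta1.

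The direct comparison of the ablations separated the same alpha genes. Gsta1 was lower in FSP1 ablated than in aSMA ablated liver by a log2 difference of -2.49 (SE 0.38, limma adjusted p = 0.00384), a 5.64-fold difference. It was -3.08 without background correction and -3.14 on the deposited scale. For Gsta2 it was -1.95 (SE 0.38, limma adjusted p = 0.0123) and for Gsta4 -1.74 (SE 0.33, limma adjusted p = 0.00932). These 3 of 10 members passed as lower, where 4.46% of all genes passed in either direction, 2.61% as lower and 1.86% as higher. The arrays did not overlap for these genes or for the near-background Gstm3, 4 of 10, where 23.4% of all genes had no overlap. Without aSMA ablated array 2, the Gsta2 call was lost at an adjusted p of 0.0701. With only these groups in the fit, the calls of Gsta2 (adjusted p = 0.065) and Gsta4 (adjusted p = 0.0571) were both lost. All 10 members were below 0 in this comparison, with a median of -0.67 against 0.01 over all genes. After median centring 10 were below 0, and on the deposited scale 9 were below and 0 above. Without FSP1 ablated array 4, 9 were below and Gstt1 above. In the limma fit 5 members, Gstm2 and Gstp1 among them, had an unadjusted p under 0.05. Both groups carried Xist signal, while the Alb probe was low on the FSP1 ablated and high on the aSMA ablated arrays, and its part in the result was not tested.

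**Figure D4:**
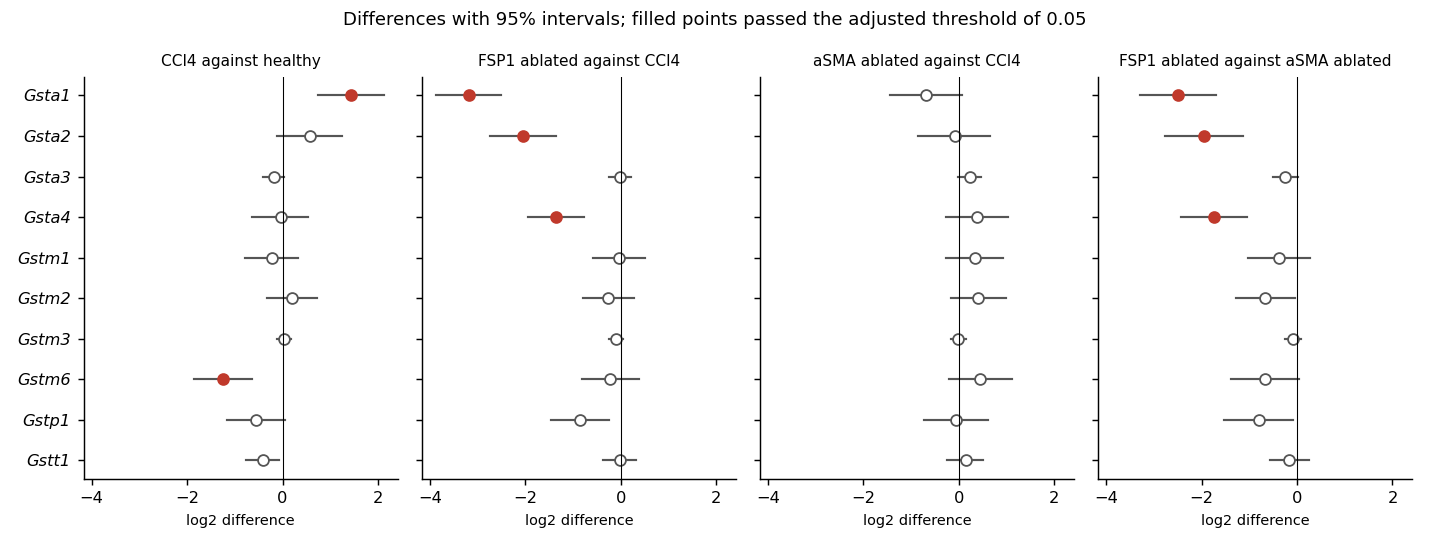
Log2 difference (x axis) with its 95% interval for each of the 10 genes (y axis) in 4 comparisons of groups, where filled points passed the adjusted threshold of 0.05 in the limma fit. Gsta1, Gsta2 and Gsta4 pass as lower in FSP1 ablated liver against both CCl4 and aSMA ablated liver, and no gene passes in aSMA ablated against CCl4 liver.

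CCl4 against healthy liver shows what differed between injured and untreated livers, and does not isolate the toxin. The tk labels differed too, and Eif2s3y was high on every healthy array but only on CCl4 arrays 5 and 6. Gsta1 rose 2.71-fold, with a log2 difference of 1.44 (SE 0.32, limma adjusted p = 0.00318), from 8.69 ± 0.93 (SD, n = 4) to 10.13 ± 0.24 (SD, n = 6). Gstm6 fell, with a difference of -1.25 (SE 0.28, limma adjusted p = 0.00359), from 10.92 ± 0.27 (SD, n = 4) to 9.67 ± 0.53 (SD, n = 6). A second Gstm6 probe gave -1.54 (adjusted p = 0.00203 over probes) and followed the first with r = 0.98 over 17 arrays. These were 2 of 10 members, where 33.4% of all genes passed (16.2% as higher and 17.3% as lower), so that the share was not above the background. The arrays did not overlap for Gsta1, Gsta3, Gstm6 and Gstt1, 4 of 10 members, where 20.7% of all genes had no overlap. Gsta2 differed by 0.57 (adjusted p = 0.193), Gstt1 by -0.41 (adjusted p = 0.0613) and Gstp1 by -0.55 (adjusted p = 0.155), and none of these passed in the limma fit.

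The scale of the healthy arrays bears on every comparison with them. On the deposited scale the median gene was higher than in healthy liver by 0.81 in CCl4, 0.89 in FSP1 ablated and 0.88 in aSMA ablated liver, and after median centring by 0.34, 0.35 and 0.39. Of the genes called in CCl4 against healthy liver, 48.3% were higher after quantile normalization, 99.3% on the deposited scale and 81.8% after centring. For FSP1 ablated against healthy liver these shares were 50%, 99.2% and 90.3%, and for aSMA ablated 49.3%, 99.4% and 85.8%. Relative to the median gene, Gsta1 in CCl4 liver was higher by 1.46 after quantile normalization, 2.0 on the deposited scale and 1.91 after centring. The Gstm6 difference relative to the median gene was -1.23, -1.06 and -0.78 in the same order, but its own value of -0.24 on the deposited scale and -0.43 after centring did not pass. Gstm6 also missed the threshold against CCl4 arrays 5 and 6 alone, the CCl4 arrays with Y-linked signal (-0.67, adjusted p = 0.163), whereas Gsta1 passed there (1.45, adjusted p = 0.0347).

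In FSP1 ablated against healthy liver, 5 of 10 members passed and all 5 were lower, where 17.4% of all genes passed in either direction, 8.71% as lower and 8.72% as higher. The arrays did not overlap for Gsta1, Gsta4, Gstm6 and Gstp1, 4 of 10 members, where 20.1% of all genes had no overlap. Gsta1 was at 6.94 ± 0.29 (SD, n = 4), below healthy liver by a log2 difference of -1.75 (SE 0.35, limma adjusted p = 0.00415). Gsta2 was lower by -1.47 (adjusted p = 0.011) and Gsta4 by -1.40 (adjusted p = 0.00643). Gstm6 and Gstp1 were lower by -1.47 (adjusted p = 0.00566) and -1.41 (adjusted p = 0.00747). On the deposited scale all 5 differences stayed below 0 and none passed: Gsta1 was at -0.98 (adjusted p = 0.0658), or -1.87 relative to the median gene. After median centring only Gsta1 (-0.97, adjusted p = 0.0237) and Gstp1 (-0.91, adjusted p = 0.0308) of these 5 passed as lower. All FSP1 ablated and aSMA ablated arrays had Xist and low Eif2s3y signal, and all healthy arrays had the reverse. Group and sex signal thus cannot be told apart in either comparison with healthy liver. All 11 measured male-biased genes also passed as lower in FSP1 ablated than in healthy liver. In aSMA ablated against healthy liver no member passed in the limma fit, 1 had an unadjusted p under 0.05 (Gstm6), and 22.2% of all genes passed. The brightest Gstm6 probe gave -0.80 (limma adjusted p = 0.101), while its second probe passed at -1.12 (limma adjusted p = 0.0472 over probes). The arrays did not overlap for 6 of 10 members there, where 32.9% of all genes had no overlap. On the deposited scale and after centring 7 members passed there, all as higher.

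**Figure D5:**
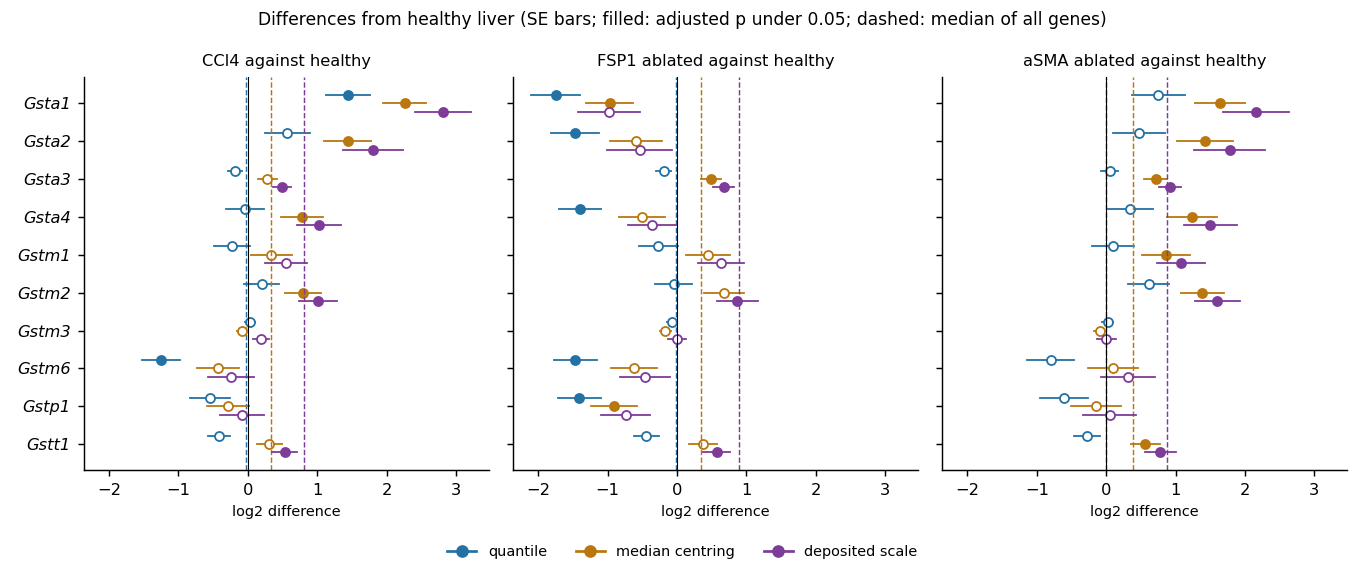
Log2 difference from healthy liver (x axis) with SE bars for the 10 genes (y axis) in CCl4, FSP1 ablated and aSMA ablated liver, under quantile normalization, median centring and the deposited scale. Filled points had an adjusted p under 0.05 and dashed lines mark the median of all genes, which moves from about 0 to between 0.81 and 0.89 on the deposited scale.

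The order of the group means for Gsta1 was thus FSP1 ablated, healthy, aSMA ablated and CCl4. The step from healthy to aSMA ablated liver (0.75, limma adjusted p = 0.178) and that from aSMA ablated to CCl4 did not pass, and the step from FSP1 ablated to healthy liver passed after quantile normalization and centring. Gsta2 had the same order, from 7.84 ± 0.93 (SD, n = 4) in FSP1 ablated over 9.32 ± 0.34 (SD, n = 4) in healthy and 9.79 ± 0.19 (SD, n = 3) in aSMA ablated to 9.88 ± 0.39 (SD, n = 6) in CCl4 liver. For Gsta4 FSP1 ablated liver was lowest at 9.18 ± 0.79 (SD, n = 4) and the other groups lay between 10.54 and 10.92. Over the 17 arrays, which share these groups, Gsta1 and Gsta2 correlated with r = 0.87, Gsta2 and Gsta4 with r = 0.86 and Gsta1 and Gsta4 with r = 0.66. With group means removed, r was 0.47, 0.61 and -0.07, so that the relation of Gsta1 and Gsta4 was seen between the groups. Whether they are related within groups was not tested, and 17 arrays are few for it.

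The genes nearest in pattern over the 17 arrays are given as a description. For Gsta1 they were E2f1, a cell cycle transcription factor (r = 0.94), and Snrnp25, a spliceosome component (r = 0.92). With group means removed these fell to 0.61 and 0.57, and for the other genes named below r was then 0.68 to 0.88. Gsta2 was nearest to Adh1, an alcohol dehydrogenase (r = 0.89), and Ociad2 (r = 0.88). Gsta4 was nearest to Nqo2, a quinone reductase (r = 0.96), and Aldh1a1, a retinaldehyde dehydrogenase (r = 0.92). Gstm6 was nearest to Tm7sf2, a sterol reductase (r = 0.94), and Aadac (r = 0.90), and Gstp1 to Idi1, an isoprenoid isomerase (r = 0.89), and Ankrd40 (r = 0.89). For Gstm1 and Gstt1 the nearest genes were Hyi (r = 0.86) and Dpp4 (r = 0.84). The second nearest were Hbp1 (r = 0.85) and Ugt2b1 (r = 0.79). Gsta3 was nearest to Ces1g (r = 0.79) and Top1mt (r = 0.78), and Gstm2 to Mmab and Abcd3 (both r = 0.78). The near-background Gstm3 is left out.

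Other genes of the pathway were read from 4 lists. Of 16 other glutathione transferases, 14 were measured, and in FSP1 ablated against CCl4 liver 0 rose and 1 fell in the limma fit, with 3 at an unadjusted p under 0.05, where 5.37% of all genes rose and 7.21% fell. The one was Mgst3, a microsomal enzyme with glutathione peroxidase activity, at 9.85 ± 0.34 (SD, n = 4) against 10.65 ± 0.14 (SD, n = 6), a difference of -0.80 (SE 0.12, limma adjusted p = 0.000455). Mgst3 rose in CCl4 against healthy liver by 0.72 (adjusted p = 0.000419) and was lower in FSP1 ablated than in aSMA ablated liver by -0.95 (adjusted p = 0.00384). The median of the list was -0.18 in FSP1 ablated against CCl4 liver, where all genes had 0.01. In CCl4 against healthy liver 2 of the 14 rose and 5 fell, where 16.2% of all genes rose and 17.3% fell. The other riser was Gstm5 (0.59, adjusted p = 0.00161), and Mgst1 (-0.47, adjusted p = 0.00119) and the near-background Gsto2 (-0.33, adjusted p = 0.00494) were among those that fell. In FSP1 ablated against healthy liver 0 rose and 6 fell, where 8.72% of all genes rose and 8.71% fell. Among the 6 were Gstt2 (-0.93, adjusted p = 0.013), Gstm4 (-1.03, adjusted p = 0.0148) and Gstk1 (-0.73, adjusted p = 0.0298). In aSMA ablated against healthy liver 2 rose and 2 fell, where 10.9% of all genes rose and 11.3% fell, and Gstp2, the paralog of Gstp1, fell by 2.24 (adjusted p = 0.0336) there. The counts of the other lists are read against the same shares of all genes. Unless stated, differences of list genes are after quantile normalization, and only Mgst3, Gss and Abcc2 were also run under other settings. For the rest, whether a rise or fall against healthy liver holds on the deposited scale or after centring was not tested.

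Of 19 genes of glutathione synthesis and recycling, 16 were measured. In FSP1 ablated against CCl4 liver 2 rose and 1 fell. Gss, glutathione synthetase, fell from 8.98 ± 0.25 (SD, n = 6) to 8.52 ± 0.19 (SD, n = 4), a difference of -0.46 (limma adjusted p = 0.0216), but the call was lost against CCl4 arrays 1 to 3 (-0.38, adjusted p = 0.1) and without FSP1 ablated array 1 (adjusted p = 0.0646) or array 4 (adjusted p = 0.075). Oplah, which recovers glutamate from oxoproline, rose by 0.56 (adjusted p = 0.028), and the near-background Ggt5 by 0.39 (adjusted p = 0.0216). Gclc, the catalytic subunit of the rate-limiting enzyme, differed by -0.36 (adjusted p = 0.394). In CCl4 against healthy liver 3 of the 16 rose and 4 fell, with the secreted peroxidase Gpx3 at 1.68 (adjusted p = 6.82e-05), Gss at 0.67 (adjusted p = 0.000705), the thioredoxin reductase Txnrd1 at -0.59 (adjusted p = 9.11e-05) and Cth, which makes cysteine, at -0.74 (adjusted p = 0.00282). Gpx3 and Txnrd1 also passed against healthy liver in the FSP1 ablated (2.01 and -0.47) and aSMA ablated (1.59 and -0.72) groups. Chac1, which degrades glutathione, was higher in FSP1 ablated than in healthy liver by 2.30 (adjusted p = 0.0163).

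Of 12 genes of conjugate export and mercapturate formation, 8 were measured. In FSP1 ablated against CCl4 liver 0 rose and 1 fell in the limma fit, and the same 1 had an unadjusted p under 0.05. It was Abcc2, the canalicular pump for glutathione conjugates, at 9.47 ± 0.13 (SD, n = 4) against 10.25 ± 0.08 (SD, n = 6), a difference of -0.78 (SE 0.11, limma adjusted p = 0.000201). Abcc2 had risen in CCl4 against healthy liver by 0.69 (adjusted p = 0.000187) and was lower in FSP1 ablated than in aSMA ablated liver by -0.67 (adjusted p = 0.00932). In CCl4 against healthy liver 1 rose and 2 fell: the acetyltransferase Nat8, which completes mercapturates, by -2.61 (adjusted p = 0.00147) and the transporter Abcc6 by -0.71 (adjusted p = 0.0161). Nat8 was 6.71 to 9.71 over the CCl4 arrays, and it also fell in FSP1 ablated (-3.65) and aSMA ablated (-3.12) against healthy liver. Of 13 regulators and other induced enzymes, 11 were measured and 0 passed in FSP1 ablated against CCl4 liver in the limma fit, with 3 at an unadjusted p under 0.05. Nfe2l2, which encodes Nrf2, differed there by -0.18 (adjusted p = 0.632), its target Nqo1 by 0.22 (adjusted p = 0.431) and Hmox1 by -0.57 (adjusted p = 0.265). In CCl4 against healthy liver the nuclear receptor Nr1i3 fell by 1.37 (adjusted p = 0.000542) and Srxn1 rose by 0.80 (adjusted p = 0.0169).

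Other cell markers moved with these groups. The summed signal of 8 stellate cell and myofibroblast markers was 11.37 to 12.19 in CCl4, 9.41 to 10.08 in FSP1 ablated, 10.11 to 11.26 in aSMA ablated and 9.19 to 9.89 in healthy liver. For 6 macrophage markers it was 12.12 to 13.04, 11.53 to 12.22, 12.64 to 12.79 and 10.40 to 11.45 in the same order. Each such sum is carried by its brightest probes. Of the 6 macrophage markers, 1 passed as higher and 1 as lower in FSP1 ablated against CCl4 liver, with a median difference of -0.18. Mean Clec4f rose from 9.19 to 9.66 and mean Lgals3 fell from 11.72 to 9.89. For 8 pericentral hepatocyte markers the summed signal was 12.94 to 14.49 in CCl4, 13.86 to 14.90 in FSP1 ablated and 13.99 to 14.73 in aSMA ablated liver, all below the 15.64 to 15.71 of healthy liver. Of these 8 genes, 1 passed as higher in FSP1 ablated against CCl4 liver, and their differences ran from -0.95 to 1.23. The female-biased liver genes, 7 measured of 12, summed to 12.95 to 13.70 in FSP1 ablated, 12.14 to 12.65 in aSMA ablated, 9.44 to 12.40 in CCl4 and 9.45 to 10.23 in healthy liver. Of the 7, 2 passed as higher and 1 as lower in FSP1 ablated against aSMA ablated liver. The male-biased genes, 11 measured of 12, were highest in healthy liver (15.82 to 16.13), against 12.44 to 14.99, 12.62 to 13.15 and 13.08 to 13.27 in CCl4, FSP1 ablated and aSMA ablated liver. Against CCl4 arrays 1 to 3, with Xist signal, Gsta1, Gsta2 and Gsta4 passed as lower in FSP1 ablated liver. Those arrays were not matched in every sex-biased gene. Female-biased Cux2 read 5.92 to 6.17 on them and 8.08 to 8.78 in FSP1 ablated liver, while male-biased Hsd3b5 read 5.89 to 6.05 and 5.90 to 6.11. The parts of the stellate cell, macrophage, pericentral and sex-biased markers in the result were not tested.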

How the data were processed

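Intensity values of the series matrix, 1 per probe and array, were used as deposited. Per the submitters' processing notes the authors used GenomeStudio; its version and how it corrected and scaled the signals are not given here. A non-normalized table was left out, since its 34 columns match no label. Groups were taken from the labels. From the intensities, normexp background correction (offset 50, background from the mode of each array), quantile normalization and log2 were computed. A probe was kept if above the 95th percentile of background on at least 3 arrays (17853 probes), and the brightest kept probe stood for its gene (13128 features, of which 12041 had a symbol). Of 25697 probes, 23978 had 1 symbol, 0 several and 1719 none in the platform annotation. The 17 arrays were fitted together with limma 3.58.1 in R 4.3.3 (lmFit, eBayes), 6 comparisons were drawn, and p-values were adjusted by Benjamini-Hochberg with a threshold of 0.05. The script was tested on simulated data. Bead array precision is limited by the number of arrays. The members and gene lists were chosen with earlier results of these data known. All 10 members are named, and from each list up to 4 genes with the smallest p in each comparison among those passing; Gclc, Nfe2l2, Nqo1 and Hmox1 were added for their roles after their values were seen. Promoter sequences are from RefSeq GRCm38.p6. No 2 arrays held identical values. Alternatives covered background, scaling, filter, probe choice, variance model, array weights, replicate block and subsets of arrays.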

Additional observations from a re-analysis of the deposited data

Results flagged for a closer look

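Of 30 sets of 4 or 6 arrays tested for a lone array (10 genes in 3 groups), 1 was marked: Gsta3 on the fourth FSP1 ablated array, at 13.29 where the other 3 lay between 13.87 and 13.95. The gap was 0.882 of the group's range, and chance marks about 1 in 20 groups.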

How the results depend on the processing

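Of 60 comparisons of the 10 members (6 each), 13 were called, and of the 269 values of these under other settings 254 kept direction and call while 15 missed the threshold. Gsta1, Gsta2 and Gsta4 in FSP1 ablated against CCl4 liver were called under every setting run. Of 991 values of uncalled comparisons, 36 became calls in the same direction, 10 became calls in the opposite direction and 92 changed sign without a call. The cause of these changes was not tested, and signal over background limits Gstm3.

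On the deposited scale, members called against healthy liver numbered 6 in CCl4, 3 in FSP1 ablated and 7 in aSMA ablated liver, and genes called 7921, 8491 and 7727. After median centring the members were 4, 3 and 7 and the genes 8021, 7035 and 7549. On the deposited scale, differences that were below 0 and not called became calls above 0 for Gsta3 0.49, Gsta4 1.03 and Gstt1 0.53 in CCl4, Gsta3 0.67, Gstm2 0.87 and Gstt1 0.57 in FSP1 ablated and Gstt1 0.78 in aSMA ablated against healthy liver. After centring the same happened for Gsta4 0.78 in CCl4, Gsta3 0.49 in FSP1 ablated and Gstt1 0.56 in aSMA ablated against healthy liver. Gstt1 was also called in FSP1 ablated against healthy liver without FSP1 ablated array 3 (-0.55).

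With array weights, members called were 5 in FSP1 ablated against aSMA ablated and 1 in aSMA ablated against healthy liver, and genes called were 2497 and 4693, with 3972 in FSP1 ablated against healthy and 1625 in aSMA ablated against CCl4 liver. With only the groups compared in the fit, members called were 1 in FSP1 ablated against aSMA ablated (654 of 13128 genes) and 4 in aSMA ablated against healthy liver (2862 genes). Without a filter, FSP1 ablated against aSMA ablated gave 384 genes. Against CCl4 arrays 5 and 6, 5 members and 1685 genes were called in FSP1 ablated liver, and 2517 genes in CCl4 against healthy liver.

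In aSMA ablated against CCl4 liver, 1 gene in the main setting, the count was 29 without background correction, 3 on the deposited scale, 6 after centring, and 0 with an offset of 16, no filter, a trended robust variance or only the groups compared. It was 1222, 4 and 64 against CCl4 arrays 1 to 3, 4 to 6 and 5 and 6.

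Leaving out 1 array at a time gave 0 to 188 genes in this comparison (188 without CCl4 array 4), 105 to 702 in FSP1 ablated against aSMA ablated (105 without aSMA ablated array 2, 214 without FSP1 ablated array 2, 242 and 326 without aSMA ablated arrays 3 and 1, 376 without FSP1 ablated array 1), 1410 to 3025 in FSP1 ablated against healthy (1410 and 1429 without healthy arrays 4 and 3, 1480 and 1483 without FSP1 ablated arrays 2 and 1) and 1631 to 3540 in aSMA ablated against healthy liver (1631 without aSMA ablated array 2).

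Same-numbered arrays did not deviate together (r between -0.3 and 0.38 over 21 pairs), so the numbers were not taken as pairs. With the replicate number as a block, 4 members and 4228 genes were called in CCl4 against healthy and 1 member and 2643 genes in aSMA ablated against healthy liver, and 21 genes in aSMA ablated against CCl4 liver.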
